A study of Homo sapiens with 18 samples.

Results

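SR proteins are splicing factors, and the genes of 10 of them were followed here through 18 RNA libraries: SRSF1, SRSF2, SRSF3, SRSF4, SRSF5, SRSF6, SRSF7, SRSF9, SRSF10 and SRSF11. They were taken by symbol, and all 10 were present among the 29240 symbols shared by both deposited count tables, and all 10 passed the filter on low counts in both. The family was chosen by a measured value, the call of SRSF3 when the knockout clones were set against their control in PLATE-seq. Values of that contrast, of each clone against the same control, and of other contrasts with that control are therefore given as description, without a test.

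SR proteins carry RNA recognition motifs and a tail rich in arginine and serine. They bind enhancer sequences in exons and recruit the spliceosome, and several also accompany messenger RNA to the cytoplasm. Phosphorylation of the tail by the SRPK and CLK kinases and import by TNPO3 set their place in the cell. Many of their own genes hold an ultraconserved poison exon, whose inclusion sends the transcript to nonsense-mediated decay and lets SR proteins limit their own amounts. Gene-level counts do not separate transcripts with and without such an exon.

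The cells were a triple-negative breast cancer line that all 18 sample titles call MDA-MB-436, although the PLATE-seq tags for the cell line run on to other numbers. The study compares cells with and without SMARCAL1, a helicase that remodels stalled replication forks. PLATE-seq, a pooled plate assay of polyadenylated RNA, covered SMARCAL1 knockout clones 1, 2 and 3 with a control, and cells given siRNA against SMARCAL1 with an siRNA control, 2 libraries per group. TruSeq total RNA libraries covered knockout clone 1 and a control, 3 libraries per group. Each clone is a single line, the way SMARCAL1 was disrupted is not given in the labels, and no treatment besides siRNA is named. Replicates are biological by their titles, and the p-values measure the spread between them.

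The libraries of PLATE-seq were shallow, with 807861 to 3068887 counts, against 10257584 to 19270648 counts in TruSeq. In TruSeq, SMARCAL1 was at 14.0, 14.1 and 13.4 CPM (counts per library total, here and for the markers, and per TMM-scaled total in what follows) in libraries labelled knockout clone 1 and at 14.7, 14.3 and 15.2 CPM in its control, slightly lower without overlap. PLATE-seq held 3 to 44 SMARCAL1 counts in the clones and 0 and 3 in the control, with overlap. A disrupted gene can keep its transcript, so these counts do not check the genotype. In siRNA SMARCAL1 libraries the count of SMARCAL1 was 0 and 0, and in the siRNA control it was 7 and 8. VIM, KRT8, KRT18 and CD44 had counts in every library. The hormone receptors ESR1 and PGR, the leukocyte markers PTPRC and CD3E and the endothelial marker CDH5 had 0 counts in PLATE-seq and at most 2.83 CPM in TruSeq. PECAM1, another endothelial marker, had counts in 5 of 12 PLATE-seq libraries, up to 4.08 CPM, and reached 2.92 CPM in TruSeq. ERBB2 reached 8.90 CPM in PLATE-seq and was at 39.3 to 51.5 CPM in TruSeq. The TruSeq libraries fell into a set with more detected features, 36042 to 39068 (knockout replicate 1, control replicates 1 and 2), and a set with fewer, 28621 to 30653 (knockout replicates 2 and 3, control replicate 3). In PLATE-seq spike-in RNA made up 0.0230% to 0.0534% of the counts in all 6 libraries numbered replicate 1 and 0.000205% to 0.00136% in all 6 numbered replicate 2. The labels name no batch, and its part in the results was not tested beyond the values within each number given below.

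Promoter windows are shown for SRSF3, the member that was past the threshold in the knockout contrast of PLATE-seq, and for SRSF4 and SRSF11, the members with the lowest TruSeq changes. Each window is 300 bases around a RefSeq start site on GRCh38.p14, written 5′ to 3′ on the strand of the gene. Capitals mark matches on either strand to the CCAAT box, to the TATA box letters TATAAA and to the GC box letters GGGCGG, and no matches overlapped in these windows. SRSF3 lies at chr6:36594112-36594411 (plus), SRSF4 at chr1:29181851-29182150 (minus) and SRSF11 at chr1:70221130-70221429 (plus). A second SRSF11 window, at chr1:70205446-70205745 (plus), spans the annotated start of the gene. It held no match to any of these motifs and is not shown.
SRSF3: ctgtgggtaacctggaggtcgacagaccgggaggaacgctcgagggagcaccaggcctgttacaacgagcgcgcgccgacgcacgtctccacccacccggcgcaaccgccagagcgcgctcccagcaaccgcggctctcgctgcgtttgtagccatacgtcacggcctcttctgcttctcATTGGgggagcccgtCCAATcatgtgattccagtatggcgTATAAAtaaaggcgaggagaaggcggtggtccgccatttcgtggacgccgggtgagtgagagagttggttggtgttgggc
SRSF4: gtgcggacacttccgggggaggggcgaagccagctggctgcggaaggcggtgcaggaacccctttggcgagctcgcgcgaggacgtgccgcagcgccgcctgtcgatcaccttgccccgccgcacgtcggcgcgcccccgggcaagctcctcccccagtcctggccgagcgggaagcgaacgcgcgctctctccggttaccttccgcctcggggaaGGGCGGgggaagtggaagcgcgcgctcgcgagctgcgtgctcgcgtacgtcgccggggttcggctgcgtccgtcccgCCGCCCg
SRSF11: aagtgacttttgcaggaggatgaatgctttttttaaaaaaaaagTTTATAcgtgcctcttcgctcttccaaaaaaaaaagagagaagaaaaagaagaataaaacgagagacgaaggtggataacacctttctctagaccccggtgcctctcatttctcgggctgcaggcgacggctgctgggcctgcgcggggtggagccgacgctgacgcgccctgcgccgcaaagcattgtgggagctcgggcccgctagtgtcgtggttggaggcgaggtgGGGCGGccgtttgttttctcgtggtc
The table held 11 windows for 9 of the 10 genes, and none for SRSF2. Among those 9, SRSF3 was the sole member with CCAAT, which 34.6% of 35116 RefSeq promoter windows held. TATAAA was in 1 window each of SRSF3, SRSF7 and SRSF11, and in 11.5% of all windows. GGGCGG was in 5 of the 11, belonging to SRSF4, SRSF6, SRSF7 and SRSF11, and in 45.0% of all windows. A match of letters does not show that a factor binds.

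SRSF3, the smallest SR protein and an export adaptor for messenger RNA, was lower in all 6 PLATE-seq knockout libraries than in their control. It is encoded at chr6:36594353-36605600 (plus, GRCh38). SRSF3 stood at 111.1 and 119.6 CPM in knockout clone 1, 96.7 and 98.4 in clone 2, and 104.4 and 107.5 in clone 3, against 391.5 and 158.8 CPM in the control. All 6 knockout libraries were below both control libraries, and the 3 clones lay close together while the control libraries were far apart. The mean of the clones differed from the control by -1.38 on the log2 scale (SE 0.27), with -1.26, -1.50 and -1.38 for clones 1, 2 and 3. The siRNA control, which is SMARCAL1-proficient too, stood at 64.9 and 120.7 CPM, so its libraries were also below both control libraries, by -1.56 (SE 0.36). Against the siRNA control the clones were at 0.19 (SE 0.29). In bulk RNA, fewer cells of a type and less RNA per cell cannot be told apart.

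**Figure D1:**
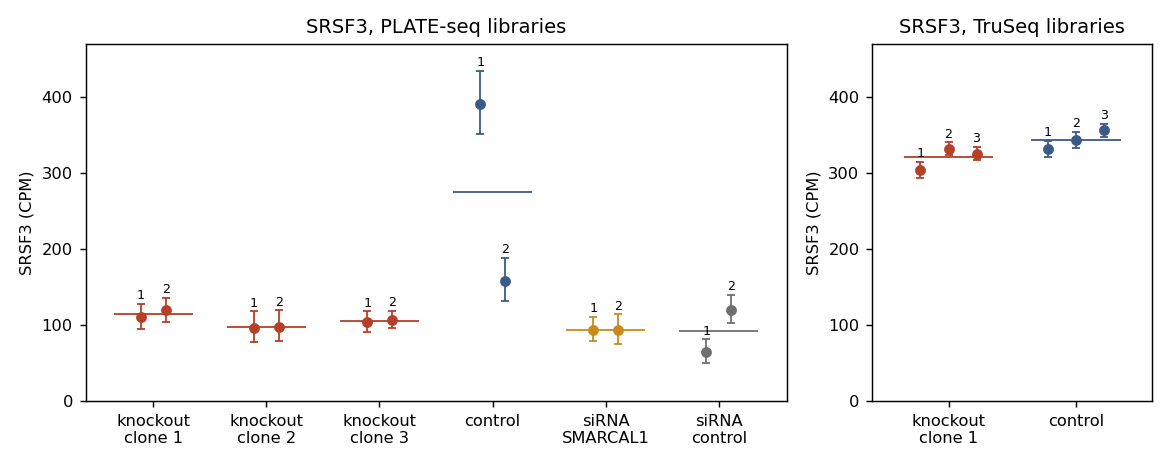
SRSF3 in every library as CPM on a linear axis from 0, with PLATE-seq on the left and TruSeq on the right; points are libraries with their replicate number, bars are 95% Poisson counting intervals, and horizontal lines are group means. PLATE-seq control replicate 1, at 391.5 CPM, stands above the other 11 PLATE-seq libraries, which lie between 64.9 and 158.8 CPM.

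Control replicate 1 held 354 SRSF3 counts (391.5 CPM, 95% Poisson interval 352 to 434), and control replicate 2 held 128 (158.8 CPM, 132 to 189). This gap between replicates was 1.29 on the log2 scale, and 1669 of 8595 genes tested had a larger one there. The control gaps of the other 9 members ran from -0.42 for SRSF10 to 0.75 for SRSF1. Leaving out control replicate 1 moved the SRSF3 difference of the clones to -0.57, and the call that chose the family did not hold there. Leaving out control replicate 2 moved the difference to -1.88. Within the libraries numbered replicate 1, the mean of the clones was 0.266 of the control (104.1 against 391.5 CPM), and within those numbered replicate 2 it was 0.683 of it (108.5 against 158.8 CPM). With the replicate number as a term in the fit the difference was -1.37.

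SRSF3 was the 1 of 10 members past the threshold in that contrast (edgeR, adjusted p under 0.05), where 0.198% of all genes were past it, 0.0465% higher and 0.151% lower, and nothing is read from this count because it chose the gene. The other 9 had a median of -0.21 and ran from -0.42 for SRSF2 to 1.05 for SRSF1, beside a median of -0.01 for all genes. Knockout libraries lay below both control libraries for SRSF2, SRSF3 and SRSF11, 3 of 10 members, where 5.48% of all genes tested did so. They lay above for 0 members, where 6.52% of genes did. SRSF3 is in this count by the choice of the family, and the other members share its control libraries, so nothing is read from this count either.

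A comparison within each library needs no scaling between libraries. SRSF3 exceeded the median of the other 9 members, in log2 CPM, by 0.61 to 1.20 in the 6 knockout libraries, and by 2.79 and 1.20 in control replicates 1 and 2. The excess was 0.31 and 0.88 in the siRNA SMARCAL1 libraries and 0.30 and 1.09 in the siRNA control. In TruSeq it was 1.03, 1.30 and 1.29 in knockout clone 1, against 0.96, 1.07 and 1.27 in the control. The excess in control replicate 1 of PLATE-seq was the highest of the 18 libraries, and the other 17 lay between 0.30 and 1.30.

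**Figure D2:**
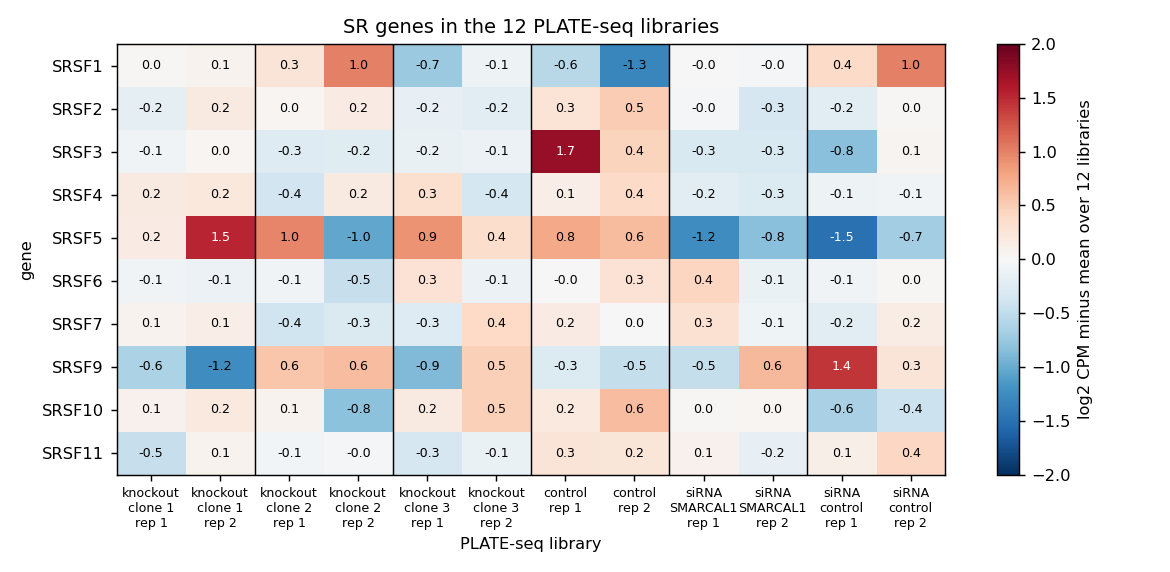
Log2 CPM of each SR gene in each PLATE-seq library minus that gene's mean over the 12 libraries, with genes in rows, libraries in columns and group borders as black lines. The SRSF3 row is highest in control replicate 1 and lowest in siRNA control replicate 1; SRSF5 is low in all 4 siRNA libraries, and SRSF1 is low in both control libraries.

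SRSF1, which binds purine-rich enhancers and is the founding member of the family, lay above the control in the mean of the clones. It stood at 23.8 and 24.6 CPM in clone 1, 28.1 and 48.2 in clone 2, and 13.3 and 21.6 in clone 3, against 15.5 and 8.7 CPM in the control. The control values rest on 14 and 7 counts, and clone 3 overlapped them. The mean of the clones was at 1.05 (SE 0.46). SRSF1 was at 30.7 and 48.4 CPM in the siRNA control, at 1.70 relative to the control (SE 0.53). The mean of the clones relative to the siRNA control was -0.65 (SE 0.37). SRSF7, a zinc-knuckle member that shares export duties with SRSF3, was at 108.2 to 188.3 CPM in the clones and 160.4 and 142.6 in the control, and the groups overlapped (-0.13, SE 0.24).

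SRSF2, a largely nuclear member that binds enhancers of varied sequence, was at 219.3 and 285.0 CPM in clone 1, 259.0 and 280.7 in clone 2, and 224.4 and 216.5 in clone 3, against 305.2 and 357.2 CPM in the control. Every clone library was below both control libraries (-0.42, SE 0.21), and the siRNA control, at 213.9 and 254.8 CPM, was below them as well (-0.50, SE 0.26). SRSF11, an SR-related protein of the spliceosome, was at 313.2 to 456.0 CPM in the clones and 514.3 and 511.1 CPM in the control, again with no overlap (-0.39, SE 0.20). Its siRNA control libraries, at 469.9 and 577.0 CPM, lay on either side of the control.

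SRSF4, SRSF5 and SRSF6 are close relatives that each carry an additional, divergent RNA recognition motif. SRSF4 was at 95.7 to 156.4 CPM in the clones and 137.1 and 162.5 in the control (-0.21, SE 0.25), and SRSF6 at 40.0 to 68.0 CPM in the clones and 55.3 and 68.2 in the control (-0.23, SE 0.29). SRSF5 was at 4.1 to 31.1 CPM in the clones and 17.7 and 16.1 in the control (-0.06, SE 0.59). All 3 overlapped between clones and control. SRSF5 was low in all 4 siRNA libraries, at 3.4 and 4.9 CPM with siRNA SMARCAL1 and 2.6 and 5.6 CPM in the siRNA control. For SRSF5 the siRNA control relative to the control of the clones was -1.99 (SE 0.81), on 3 and 8 counts against 16 and 13.

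SRSF9, a close relative of SRSF1 with a short tail, was scarce in PLATE-seq, with 6 to 52 counts per library. Its libraries held 6.5 and 3.8 CPM in clone 1, 16.6 and 17.4 in clone 2, and 5.3 and 15.8 in clone 3, against 8.8 and 7.4 CPM in the control. Clone 1 lay below the control, clone 2 above it and the clone 3 libraries on either side, and the mean of the clones was at 0.26 (SE 0.65). SRSF10, which represses splicing once dephosphorylated, was at 18.4 to 47.4 CPM in the clones and 38.7 and 52.1 in the control (-0.37, SE 0.34), with overlap. The test of differences among the 3 clones gave no weight to the control levels. The spread it used was estimated over all PLATE-seq libraries, the control among them. None of the 10 members passed that test, where 0.71% of all genes did, and adjusted p ran from 0.513 for SRSF1 to 0.951 for SRSF3 (edgeR F test).

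The siRNA contrast set cells given siRNA against SMARCAL1 beside those given the siRNA control. No SR gene passed the threshold in it, nor did any of the 8595 genes tested (0%), while 544 genes and 0 members had an unadjusted p under 0.05 and DESeq2 called 13 genes and 0 members. SRSF3 was at 93.9 CPM in both siRNA SMARCAL1 libraries, between the 64.9 and 120.7 CPM of the siRNA control, so it was above the siRNA control library numbered replicate 1 and below the one numbered replicate 2. Its log2 fold change was 0.01 (SE 0.36, 95% interval -0.73 to 0.75, edgeR adjusted p = 0.998). The other 9 had a median of -0.08 and ran from -0.84 for SRSF9 to 0.58 for SRSF10, beside a median of -0.02 for all genes. The standard errors of the 10 members ran from 0.25 to 0.88. On simulated data of this design 6.52% of genes changed by 1 on the log2 scale were recovered, and 44.1% of those changed by 2.

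SRSF1 stood at 23.1 and 22.7 CPM with siRNA SMARCAL1, against 30.7 and 48.4 in the siRNA control (-0.79, SE 0.48, edgeR adjusted p = 0.847). SRSF11 was at 457.3 and 386.5 CPM, against 469.9 and 577.0 in the siRNA control (-0.31, SE 0.25, edgeR adjusted p = 0.912). Without siRNA control replicate 2 these values were -0.42 for SRSF1 and -0.16 for SRSF11, and without siRNA control replicate 1 they were -1.07 and -0.45. For SRSF1, SRSF4 and SRSF11 both siRNA SMARCAL1 libraries were below both siRNA control libraries, 3 of 10 members, where 19.2% of all genes tested were. SRSF10 was the 1 member above, at 34.0 and 34.6 CPM against 21.0 and 24.6 (0.58, SE 0.43, edgeR adjusted p = 0.898), where 18.1% of all genes were. The SRSF9 value rested on siRNA control replicate 1, at 31.6 CPM, since without that library it was -0.10.

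**Figure D3:**
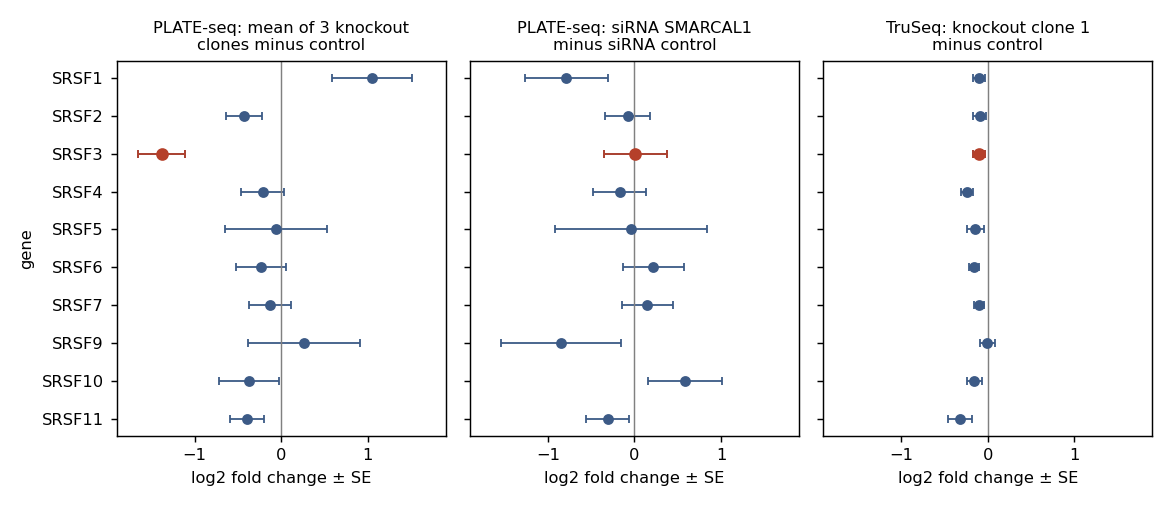
Fitted log2 fold changes of the 10 SR genes with standard errors as bars, for the mean of knockout clones 1, 2 and 3 minus control and siRNA SMARCAL1 minus siRNA control in PLATE-seq, and knockout clone 1 minus control in TruSeq; SRSF3 is in red. SRSF3 is at -1.38, 0.01 and -0.10 in the 3 panels, and all 10 TruSeq values lie between -0.32 and -0.01.

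TruSeq compared knockout clone 1 with a control at greater depth, and its libraries are separate from those that chose SRSF3. All 10 members were below 0 there by small amounts, although SRSF9, at -0.01, was above 0 without control replicate 3 or knockout replicate 1. They had a median of -0.12, beside a median of -0.00442 for all genes, of which 50.7% were below 0. None was past the threshold in either direction, where 6.27% of the 17371 genes tested were (3.96% higher and 2.31% lower). SRSF4, SRSF6 and SRSF11 had an unadjusted p under 0.05, as had 3538 of the 17371 genes tested, and DESeq2 called 0 members. Knockout libraries lay below all control libraries for SRSF1, SRSF4, SRSF6 and SRSF7, 4 of 10 members, where 12.7% of all genes did, and above them for 0 members, where 13.6% did.

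SRSF3 had 304.7, 332.0 and 325.9 CPM in knockout clone 1, against 331.9, 344.1 and 356.5 CPM in the control. Knockout replicate 2 lay just above control replicate 1, so the groups overlapped. The log2 fold change was -0.10 (SE 0.07, 95% interval -0.25 to 0.05, edgeR adjusted p = 0.438). For the same clone PLATE-seq gave -1.26 (SE 0.35); the assays were fitted apart and their difference was not tested. The fitted TruSeq change of SRSF3 minus the median change of the other 9 members was 0.041.

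SRSF4 had 102.1, 103.8 and 100.5 CPM in the knockout and 130.1, 113.4 and 119.1 CPM in the control. All knockout libraries were lower, and the change was -0.24 (SE 0.07, 95% interval -0.40 to -0.08, edgeR adjusted p = 0.0863). SRSF6 had 129.1, 134.7 and 133.5 CPM in the knockout and 146.5, 149.4 and 147.4 CPM in the control, without overlap (-0.16, SE 0.06, edgeR adjusted p = 0.168). SRSF11 had 149.5, 115.8 and 107.9 CPM in the knockout and 170.9, 163.8 and 132.0 CPM in the control, with overlap (-0.32, SE 0.14, edgeR adjusted p = 0.230). These were the members with the lowest TruSeq values, and none was called.

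Several members moved with the number of detected features. SRSF11 was 0.38 higher on the log2 scale in libraries with more features, SRSF5 and SRSF10 were each 0.21 higher, and SRSF9 was 0.18 lower (log2 -0.18). With that split as a term in the fit, SRSF2 (-0.14, edgeR adjusted p = 0.0482), SRSF4 (-0.24, 0.00326), SRSF6 (-0.16, 0.0193) and SRSF11 (-0.20, 0.00566) were past the threshold, and SRSF3 was at -0.13 with an adjusted p of 0.0534. That fit called 3793 genes in all, against 1089 without the term. Within the libraries with fewer features (2 knockout, 1 control) the log2 CPM of the knockout minus the control was -0.22 for SRSF4 and -0.24 for SRSF11. Within those with more (1 knockout, 2 control) it was -0.25 and -0.16. With 1 library in a group these values are given without a test. The part of the feature split in these differences was not tested further.

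**Figure D4:**
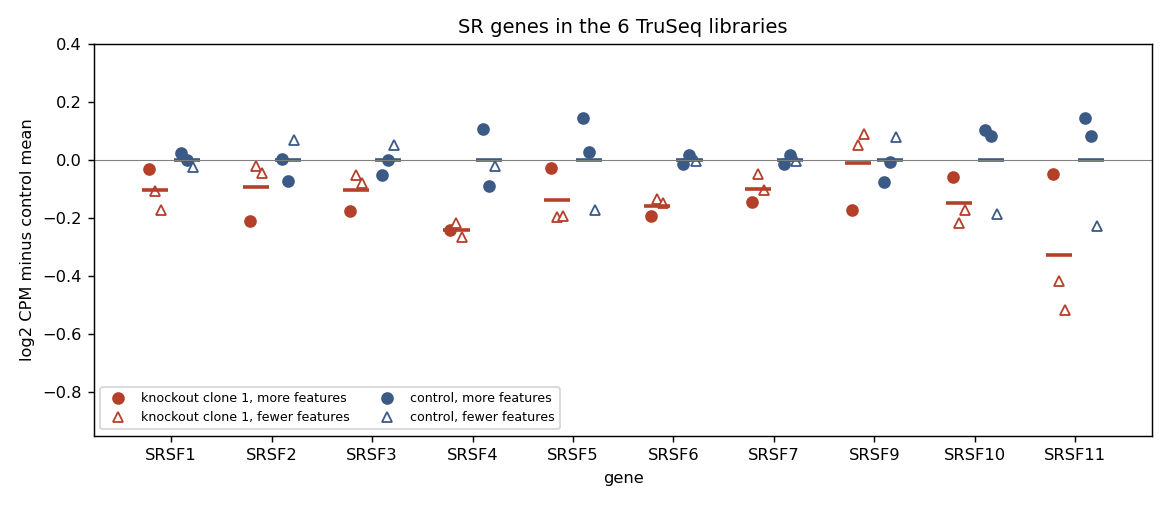
Log2 CPM of each SR gene in each TruSeq library minus the control mean of that gene; filled circles are libraries with more detected features, open triangles those with fewer, and lines are group means, with knockout clone 1 left of its control. SRSF4 and SRSF6 lie lower in all 3 knockout libraries whichever the feature set, while SRSF5, SRSF10 and SRSF11 are also lower in the control library with fewer features.

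SRSF1 had 389.6, 370.1 and 354.0 CPM in the knockout and 404.9, 398.2 and 392.3 CPM in the control (-0.10, SE 0.06, edgeR adjusted p = 0.425). SRSF7 had 176.8, 189.0 and 182.0 CPM in the knockout and 193.6, 197.9 and 195.0 CPM in the control (-0.10, SE 0.06, edgeR adjusted p = 0.404). In both genes the groups did not overlap, by a margin of a few CPM. SRSF2 (-0.09), SRSF5 (-0.14), SRSF9 (-0.01) and SRSF10 (-0.15) overlapped, with edgeR adjusted p from 0.391 for SRSF10 to 0.978 for SRSF9.

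**Figure D5:**
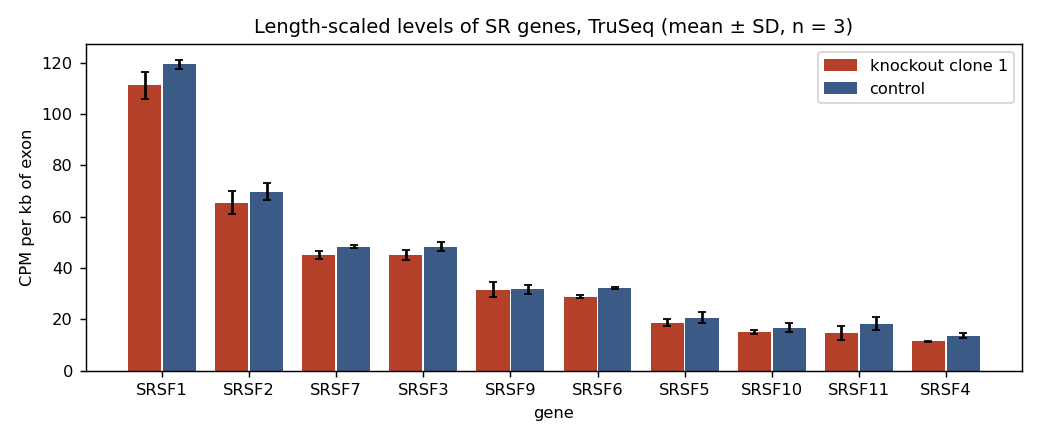
TruSeq CPM per kilobase of annotated exon for the 10 SR genes, ordered by the knockout level, with knockout clone 1 left of its control; bars are means over 3 libraries and error bars are SD. SRSF1 is the highest, at 111 and 119, and SRSF4 the lowest, at 11.5 and 13.6.

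Per kilobase of annotated exon, levels can be set between genes only roughly. The length was the union of exons over all annotated transcripts, from 3.017 kb for SRSF2 to 10.277 kb for SRSF10. The order below therefore depends on the annotation. Before scaling by length, SRSF4 had means of 102 CPM in the knockout and 121 in the control, near the 100 and 111 of SRSF5. SRSF1 was the highest, at 111 ± 5.35 CPM per kb in knockout clone 1 and 119 ± 1.89 in the control (SD, n = 3 each), followed by SRSF2 at 65.5 ± 4.54 and 69.7 ± 3.43. SRSF7 and SRSF3 came next and did not differ beyond their spread, with SRSF3 at 45.1 ± 2.01 and 48.4 ± 1.73. SRSF9 and SRSF6 changed places between the groups, and SRSF9 was at 31.6 ± 3.02 and 31.8 ± 1.74. SRSF5, SRSF10 and SRSF11 were close, and SRSF4 was the lowest, at 11.5 ± 0.186 in the knockout and 13.6 ± 0.957 in the control. SRSF1 shares 1890 exon bases, 56.6% of its annotated exon length, with AC015813.2 on the same strand, so its counts are uncertain. SRSF9 shares 46.2% with GATC and SRSF2 36.7% with MFSD11, both on the opposite strand, and the strand setting of the counting is not given in the sources used here. In TruSeq AC015813.2 was at -0.10 (SE 0.06), as SRSF1 was, with 278 to 315 CPM per library. GATC was at 0.02 (SE 0.07) and MFSD11 at -0.01 (SE 0.14). Pseudogenes named for SRSF1, SRSF9 and SRSF10 held 0 to 3 counts in TruSeq.

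The 5 genes whose PLATE-seq pattern was most like that of SRSF3, by the root mean square (RMS) difference of centred log2 CPM over 12 libraries among 2209 genes, were TAF15 (0.229), ATP6AP2 (0.342), WIPI2 (0.358), CARS (0.363) and PPME1 (0.392). Their highest value was in control replicate 1, which follows from the choice, since SRSF3 was highest there. TAF15, an RNA-binding protein of the FET family, had 214.5 CPM in control replicate 1, 81.9 in control replicate 2 and 49.0 to 105 CPM over the other 11 libraries. CARS, a transfer RNA synthetase, had 370 and 104 CPM in the control. Of the SR genes with enough counts to rank, SRSF2 was the most like SRSF3, at rank 47 (0.489), and SRSF4, SRSF11, SRSF7 and SRSF6 ranked 207, 221, 244 and 528.

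The other genes of the family and their regulators were read by lists. TRA2A and TRA2B, splicing activators with tails at both ends, and SRSF8 were the tested genes of the other SR and TRA2 list, and 0 of 3 passed in TruSeq (TRA2A 0.04, TRA2B -0.12, SRSF8 -0.04) or with siRNA (-0.16, 0.36 and -1.79). The siRNA value of SRSF8 (SE 0.97) rested on few counts, 3 and 4 with siRNA SMARCAL1 against 2 and 26 in the siRNA control. SRSF12 was too low to test. Of 14 SR kinases, phosphatases and import factors 0 passed in TruSeq, with SRPK1 at 0.04, SRPK2 at 0.04, SRPK3 at 0.55, CLK1 at 0.03, CLK2 at -0.07, CLK3 at -0.30 and CLK4 at -0.04. CLK3 came nearest among these kinases (SE 0.10, edgeR adjusted p = 0.107), with 14.7 ± 0.589 CPM in the knockout and 18.2 ± 0.863 in the control (SD, n = 3 each). The import receptor TNPO3 was at -0.02.

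CLK4, a kinase of SR protein tails, was nearly missing from the PLATE-seq control, and its counts were picked out after they were seen. It had 15 and 5 counts in clone 1, 15 and 9 in clone 2, and 34 and 58 in clone 3, against 0 and 1 in the control. Relative to library totals the ratio of the clones together to the control was 21.2, on 136 counts against 1. It pools libraries that differed by more than counting noise, and it uses the control that chose the family. The ratio is therefore a description, and no interval is given for it. The siRNA control held 6 and 19 counts and the siRNA SMARCAL1 libraries 8 and 11. In TruSeq the CLK4 level was 27.9 ± 6.93 CPM for the knockout and 28.6 ± 6.65 for its control (SD, n = 3 each).

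Among all genes tested in TruSeq 3.96% were called higher and 2.31% lower, and the counts in the following lists stand beside those shares. Of 28 SR-related proteins 1 rose and 0 fell, which is near the share over all genes, and the 1 was SRRT, a nuclear cap-binding partner (0.28, SE 0.06, edgeR adjusted p = 0.0322). Of 48 spliceosome genes 3 fell and 0 rose. They were PRPF6, which bridges the tri-snRNP (-0.63, SE 0.12, adjusted p = 0.0164), SF3A3, a subunit of the U2 snRNP (-0.43, SE 0.06, adjusted p = 0.00784), and SART1, a tri-snRNP protein (-0.28, SE 0.06, adjusted p = 0.0338). The list had a median of -0.14, with 39 of 48 below 0, beside a median of -0.00442 and 50.7% below 0 over all genes. Of 23 genes of the exon junction, export and decay 1 fell, UPF3A, a decay factor (-0.60, SE 0.13, adjusted p = 0.0308), and of 27 hnRNP genes 0 passed. None of these 5 calls held under omission of every single library, with adjusted p up to 0.182 for SRRT, 0.0665 for SF3A3, 0.106 for PRPF6, 0.198 for SART1 and 0.141 for UPF3A. In the siRNA contrast 0 genes of any list passed.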

How the data were processed

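Counts per gene symbol were deposited by the authors as 2 tables of raw counts, for which the submitters' processing notes name STAR, HTSeq and hg38. No version, annotation or strand setting is given in the sources used here. The 92 spike-in entries of PLATE-seq entered neither library sizes nor tests, and 14 TruSeq and 28 PLATE-seq symbols turned into dates were kept unnamed. Groups came from titles.

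Each assay was fitted apart with edgeR 4.0.16 in R 4.3.3 (filterByExpr, TMM, quasi-likelihood F test on group), which tested 17371 TruSeq and 8595 PLATE-seq genes with 4 and 6 residual degrees of freedom. Two-sided p-values were adjusted over each contrast's tested genes (Benjamini-Hochberg), and those under 0.05 are called past the threshold. CPM of tested genes uses TMM library sizes, CPM of SMARCAL1 and the cell markers uses library totals, and log2 CPM adds a prior count of 2. Replicates of one group differed by more than counting noise in all 8 groups (chi-square per degree of freedom 5.66 to 19.3). All libraries were kept in the main fits. The fit was tested on simulated data with known changes.

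The members and gene lists were chosen with earlier results of these data known. All members, the other SR and TRA2 genes and the SR kinases are named; of other lists, the genes past the threshold in TruSeq or siRNA, at most 4 per list. CLK4 counts and TNPO3 were added after values were seen. Exon lengths and gene coordinates came from GENCODE 29, 1-based. Poisson intervals and floors cover counting error only. DESeq2 1.42.0, other scalings, no filter, a replicate term, a feature-split term and omission of single libraries were tried.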

Additional observations from a re-analysis of the deposited data

Results flagged for a closer look

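SRSF1 lay on opposite sides of its matching control in different experiments, and it was not past the threshold in TruSeq or with siRNA. Both libraries lay above both controls in PLATE-seq clone 1 (0.98 on the log2 scale) and clone 2 (1.64), whereas the siRNA SMARCAL1 libraries lay below the siRNA control (-0.79) and the TruSeq clone 1 libraries below their control (-0.10). The PLATE-seq control held 14 and 7 SRSF1 counts. Relative to that control the siRNA control was also higher, at 1.70 (SE 0.53), and the mean of the clones relative to the siRNA control was -0.65 (SE 0.37). SRSF9 lay below the control in clone 1 (-0.65) and above it in clone 2 (1.05), on 6 to 52 counts per library. SRSF10 lay below the control in clone 2 (-0.75) and above the siRNA control with siRNA SMARCAL1 (0.58). For SRSF9 the test of differences among the clones did not pass (edgeR F test, adjusted p = 0.537). The difference of the mean of the clones minus that of siRNA SMARCAL1, each against its own control, was 1.84 (SE 0.67) for SRSF1 and -0.96 (SE 0.55) for SRSF10; no p is given, since the control of the clones chose the family. The other differences between groups were not tested.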

How the results depend on the processing

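Of the members' TruSeq changes, 128 of 140 values under other settings kept direction and side of the threshold, as did 90 of 99 with siRNA and 140 of 150 for the mean of the clones. The contrast of the clones chose the family, so its values and counts in this section are description only. The number of SR genes lower and past the threshold in TruSeq was 0. It became 2 with the replicate block (SRSF4 and SRSF11), where calls over all genes in either direction rose from 1089 to 2387. With the feature split as a term it became 4, where calls over all genes rose to 3793. Over omissions of single libraries it was 0 to 1 (SRSF11 without knockout replicate 1, -0.47, edgeR adjusted p = 0.0400). The replicate numbers were not taken to pair libraries, since same-numbered TruSeq libraries deviated with correlations of 0.58, -0.27 and 0.38 and PLATE-seq ones with -0.06 to 0.06; the block left SRSF3 at -0.10, 0.00 and -1.37 in TruSeq, siRNA and the clones. For the mean of the clones the count of 1 became 0 with the siRNA control as reference and was 0 to 1 over omissions. The mean within-library excess of SRSF3 over the median of the other 9, clones minus control, was -1.04 (the fitted changes give -1.16), -1.83 to -0.24 over omissions and 0.27 against the siRNA control, where the fitted SRSF3 change was 0.19. SRSF9 in TruSeq was 0.016 with all genes with a count and ran from -0.056 to 0.074 over omissions. With siRNA, direction turned over omissions for SRSF2 (-0.24 to 0.065), SRSF3 (-0.36 to 0.53, and -0.078 with library totals), SRSF5 (-0.45 to 0.62), SRSF6 (-0.11 to 0.47) and SRSF7 (-0.069 to 0.34). The cause was not tested. All genes called in TruSeq numbered 1089, and 2387 with the block, 3793 with the feature term and 199 to 1145 over omissions. For the clones 17 were called, with 53 by DESeq2 and 83 without the filter. With siRNA 0 were called, with 13 by DESeq2 and 22 without the filter. Library totals moved the siRNA median of all genes to -0.11, and no filter moved that of the clones to 0.14. Alternatives for the genes of the lists were added after the data were seen.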
